A study of Mus musculus with 12 samples.

Results

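The proteins that hold neighbouring epithelial cells together were followed here through 34 genes of tight junctions, adherens junctions and desmosomes. They were measured in the proximal jejunum of 12 mice on Affymetrix expression arrays. A gene counted as a member where it was on a fixed list of junction genes and had a probe set annotated to it alone. All 34 listed genes met this rule, out of 18820 genes with such a probe set. For 33 of them the array had 1 such probe set, and for Dsp, which had 2, the brighter one was used.

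The series addressed injury of the gut lining by methotrexate (MTX), an antifolate drug that blocks DNA synthesis, in mice with and without TLR2, a receptor for bacterial lipoproteins. The 4 groups held 3 mice each: TLR2 knockout with MTX, TLR2 knockout untreated, wild type with MTX, and wild type untreated. Knockout mice were of strain B6.129-Tlr2tm1Kir/J, a targeted mutation carried by every cell of the animal, and wild-type mice were C57BL6/J. The strains carry different names and the labels do not call them littermates, so genotype and colony cannot be told apart. MTX was given by intraperitoneal injection, 40 mg per kg of body weight daily over 4 days, and tissue was taken on day 7. No injection and no day of sampling is given for the untreated groups, so drug, injection and day cannot be told apart.

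Neighbouring enterocytes are joined along their lateral membranes by a stack of junctions. Tight junctions lie nearest the lumen, where claudins form either seals or ion-selective pores, occludin and its MARVEL relatives add to the strands, and ZO proteins and cingulin tie the strands to actin. Adherens junctions below them join cells through E-cadherin and its catenins, and desmosomes anchor keratin filaments through desmocollins, desmogleins, plakophilins and desmoplakin. In small intestine, pore-forming claudins let sodium pass back to the lumen, where sodium-coupled nutrient uptake needs it.

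Values are log2 signals made by RMA and deposited by the authors, so a difference of 1 is a 2-fold change in signal. Signals of different probe sets are not compared with each other. Differences were tested with limma across all 18820 genes, and rose or fell is written where the Benjamini-Hochberg adjusted p was under 0.05. The p-values measure the spread between mice, which the labels call biological replicates. A value after ± beside a difference is the limma standard error, and beside a group mean it is the SD of 3 mice.

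Arrays of one group correlated at 0.967 to 0.992 over all probe sets, and no 2 arrays were identical. The targeted gene did not separate the genotypes as labelled: Tlr2 signal was 6.18, 5.46 and 5.28 in treated knockout mice and 4.36, 5.02 and 5.01 in untreated knockout mice, against 4.49, 4.65 and 4.51 in treated wild-type mice and 4.37, 4.65 and 4.38 in untreated wild-type mice. Tlr2 was higher, not lower, in treated mice labelled knockout than in treated mice labelled wild type (1.09, adjusted p = 0.00285). Where this probe set lies relative to the deleted sequence is not given in the sources used here, so its signal does not check the deletion. Genotype names below are those of the labels, and every direction between genotypes rests on them.

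Pancreatic RNA was present in some arrays of every group. The mean log2 signal of 11 acinar genes was 11.7 to 12.5 in 7 arrays (2 of treated knockout, 2 of untreated knockout, 1 of treated wild type and 2 of untreated wild type) and 3.77 to 4.99 in the other 5. In treated knockout mice, replicate 1 also stood apart from replicates 2 and 3: 11 of the 34 members differed by over 0.5 on the log2 scale between replicate 1 and the mean of the other 2, against 1 member (Jam3) between replicates 2 and 3. Replicate 1 is the acinar-low array of that group, so the 2 features cannot be told apart there.

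The promoters of 4 claudins are shown because these genes moved in different directions. They are Cldn15, which fell most in treated knockout mice, Cldn2 and Cldn18, which rose, and Cldn4, whose interaction term ran opposite to that of Cldn15. Each window covers 250 bases before to 50 bases after an annotated RefSeq start (assembly GRCm38.p6), written 5′ to 3′ on the strand of the gene. The windows are chr5:136967619-136967918 (plus strand) for Cldn15, chrX:139800558-139800857 (plus strand) for Cldn2, and chr5:134946885-134947184 (minus strand) for Cldn4. Cldn18 has 2 starts that lie 7204 bases apart on the minus strand, with windows chr9:99717218-99717517 and chr9:99710014-99710313. Capitals mark the letters of 4 motifs, searched on both strands. The AP-1 motif was TGANTCA. The motif of GRHL factors was AACCNGNTT. The E-box bound by ZEB and SNAIL factors was CACCTG, and the TATA box was TATAAA.

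Cldn15: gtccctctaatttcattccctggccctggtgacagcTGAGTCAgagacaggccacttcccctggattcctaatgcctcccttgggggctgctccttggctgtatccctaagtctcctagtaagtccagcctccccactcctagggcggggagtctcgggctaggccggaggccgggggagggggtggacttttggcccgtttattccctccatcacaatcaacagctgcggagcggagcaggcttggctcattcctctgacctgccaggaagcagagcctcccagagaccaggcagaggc

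Cldn2: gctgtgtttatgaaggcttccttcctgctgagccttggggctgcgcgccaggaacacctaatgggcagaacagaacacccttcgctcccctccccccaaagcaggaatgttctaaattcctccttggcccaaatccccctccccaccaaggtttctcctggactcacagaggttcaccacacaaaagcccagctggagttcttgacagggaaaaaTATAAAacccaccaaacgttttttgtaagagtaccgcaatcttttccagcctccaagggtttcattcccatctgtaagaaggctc

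Cldn18, upstream start: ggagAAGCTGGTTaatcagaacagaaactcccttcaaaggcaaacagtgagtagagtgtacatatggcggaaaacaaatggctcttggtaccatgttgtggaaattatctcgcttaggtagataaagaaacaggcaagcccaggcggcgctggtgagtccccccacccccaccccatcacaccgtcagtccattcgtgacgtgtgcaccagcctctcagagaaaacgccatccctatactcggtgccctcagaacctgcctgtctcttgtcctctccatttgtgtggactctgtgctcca

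Cldn18, downstream start: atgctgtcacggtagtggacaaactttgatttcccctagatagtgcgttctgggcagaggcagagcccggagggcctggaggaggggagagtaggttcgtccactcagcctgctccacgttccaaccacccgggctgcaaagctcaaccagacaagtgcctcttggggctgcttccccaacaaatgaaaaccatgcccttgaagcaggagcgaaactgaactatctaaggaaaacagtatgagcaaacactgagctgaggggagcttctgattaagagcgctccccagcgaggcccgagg

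Cldn4: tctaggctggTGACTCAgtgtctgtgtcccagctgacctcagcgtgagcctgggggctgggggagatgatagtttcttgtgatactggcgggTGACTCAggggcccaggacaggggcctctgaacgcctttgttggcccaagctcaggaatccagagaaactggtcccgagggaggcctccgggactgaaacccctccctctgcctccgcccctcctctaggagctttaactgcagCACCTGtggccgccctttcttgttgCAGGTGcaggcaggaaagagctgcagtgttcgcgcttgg

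In Cldn15 the AP-1 letters begin at position -214 from the start, and in Cldn4 they begin at -240 and -158. Cldn2 holds a TATA box at -35. The upstream Cldn18 window holds the GRHL letters on the opposite strand at -246, and the downstream one has none of the letters searched. Cldn4 also holds the E-box letters at -14 and, on the opposite strand, at 11. Of the 34 members, 22 had a promoter in the RefSeq table, and the others were Cldn8, Cldn23, Marveld3, Jam2, Jam3, Cdh1, Cdh17, Ctnna1, Dsc2, Dsg2, Pkp2 and Pkp3.

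The same 6 motifs were searched on both strands in all 32841 RefSeq windows of this length. The E-box letters were in 12 of the 22 members (Cldn3, Cldn4, Cldn7, Crb3, Dsp, Epcam, F11r, Marveld2, Ocln, Pard3, Pard6b and Tjp3) and in 20.2% of all windows. AP-1 letters were in 3 members (Cldn15, Cldn4 and F11r) and 7.81% of all windows. The TATA box was in 4 members (Cldn2, Ctnnd1, Marveld2 and Pard3) and 13.6% of all windows. The GRHL letters were in Cldn18 and 2.31% of all windows, the CDX letters TTTATNG in Epcam and 10.9%, and the HNF4 letters CAAAGTNCA in Tjp3 and 1.41%. A member may have several windows, and the 22 members had 32. By window, the E-box letters were in 16 of these 32, the TATA box in 5, AP-1 letters in 3 and each other motif in 1. No factor binding was measured.

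MTX in knockout mice changed most junction genes, and mostly downward. Between treated and untreated mice labelled knockout, 20 of the 34 members fell and 4 rose (Cldn2, Cldn18, Jam2 and Jam3). Over all genes tested, 34.8% were called, 18.8% higher and 16% lower. The median difference of the members was -0.46, against -0.02 over all genes. Over 12 general epithelial genes, given below as cell type markers, it was -0.41, with 6 lower and 1 higher. Signals of treated and untreated knockout mice did not overlap for 19 lower and 4 higher members, where 21.6% of all genes were lower and 23% higher without overlap. The count of members that fell was 13 without treated knockout replicate 2, 13 without untreated knockout replicate 1 and 12 when only the knockout arrays were fitted, and 6 of the 20 fell by at least 1. The tissue was bulk, so fewer cells of a type and less RNA per cell cannot be told apart.

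Each junction type held members that fell and members or calls of other kinds are given beside them, where 16% of all genes fell and 18.8% rose. Among 10 claudins 4 fell and 2 rose. Of 6 MARVEL and JAM membrane proteins 3 fell and 2 rose, and of 4 scaffold proteins 2 fell. Of 3 polarity proteins 2 fell, all 5 adherens junction and cadherin genes fell, and 4 of 6 desmosome genes fell. The types hold few genes, and 8 of the 24 calls were lost in at least 1 other fit. All of those were falls: Cdh1, Cldn3, Cldn7, Ctnna1, Ctnnd1, Dsg2, Dsp and Pard3.

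**Figure D1:**
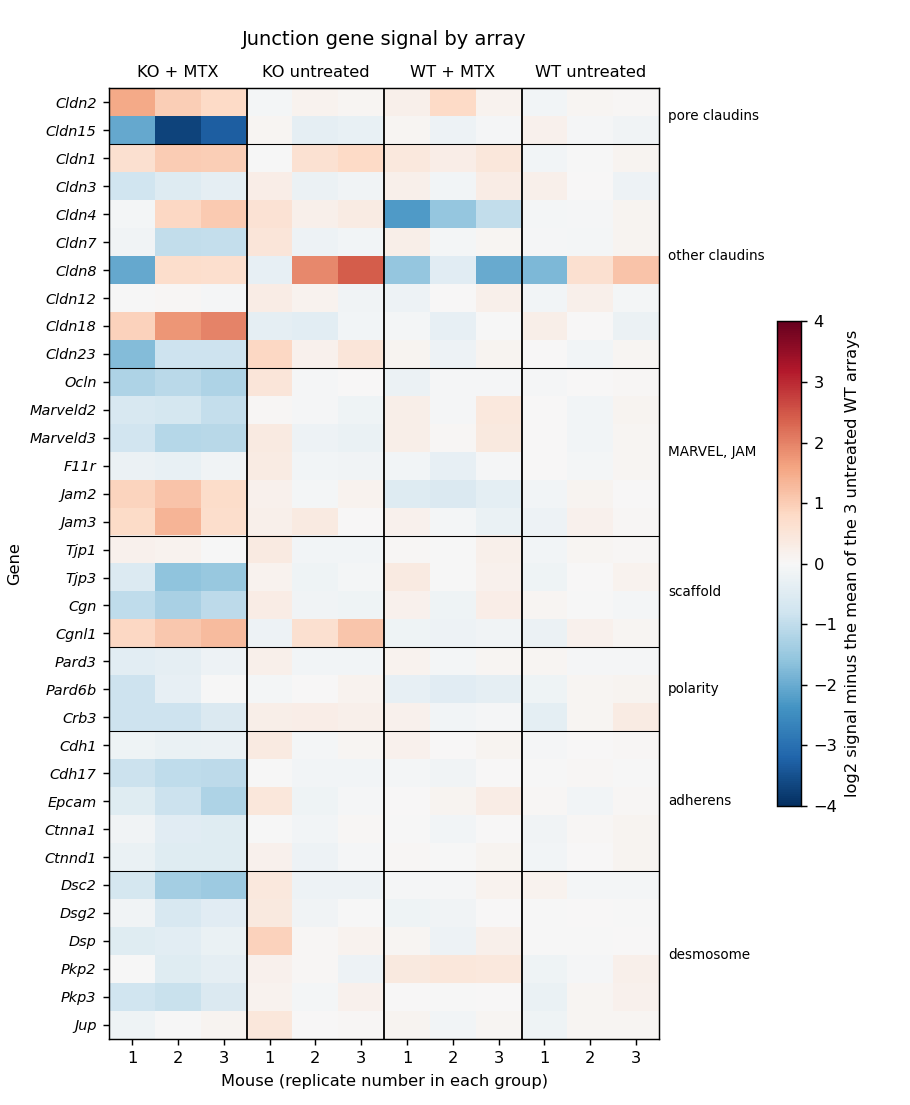
Log2 signal of the 34 junction genes (down the page, by junction type) in each of the 12 mice (across, 4 groups of 3), as the difference from the mean of the 3 untreated wild-type arrays, with red higher and blue lower. Blue fills most of the rows of treated mice labelled knockout, deepest in Cldn15 (8.67, 7.02 and 7.40), while Cldn18 (4.20, 5.03 and 5.25) and Jam2 (7.53, 7.79 and 7.38) are red there; Cldn4 is blue in treated wild-type mice (7.05, 7.76 and 8.34).

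Cldn15, which forms a sodium-permeable pore in the small intestine, fell more than any other member in knockout mice. Its signal was 8.67, 7.02 and 7.40 in treated knockout mice and 10.80, 10.35 and 10.43 in untreated knockout mice. It was 10.79, 10.51 and 10.65 in treated wild-type mice and 10.89, 10.66 and 10.58 in untreated wild-type mice. Only the 3 treated knockout arrays were low, and they overlapped no other array. The difference in knockout mice was -2.83 ± 0.33, a 7.11-fold fall (adjusted p = 4.21e-05). In wild-type mice it was -0.06 ± 0.33 with a 95% interval of -0.78 to 0.66. The interaction, the knockout MTX difference less the wild-type one, was -2.77 ± 0.46 (adjusted p = 0.00108).

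Cldn2, which forms a cation and water pore and is known from crypts of adult intestine, moved the other way. Its signal was 8.60, 8.09 and 7.90 in treated knockout mice and 7.02, 7.23 and 7.17 in untreated knockout mice. In wild-type mice it was 7.29, 7.89 and 7.25 after MTX and 6.99, 7.17 and 7.13 untreated. All 3 treated knockout arrays lay above every other array, and the closest to them was 1 treated wild-type mouse at 7.89. Cldn2 rose by 1.06 ± 0.20 in knockout mice (2.08-fold, adjusted p = 0.00143). The wild-type difference was 0.38 ± 0.20 (adjusted p = 0.475), and the interaction of 0.68 ± 0.28 was not called (adjusted p = 0.112). That term depended on the fit: it was called with array weights (0.65, adjusted p = 0.0147) and without treated wild-type replicate 2, the mouse at 7.89 (0.89, adjusted p = 0.0242). Between acinar-high arrays alone, 1 or 2 a group, the Cldn2 differences were 0.80 in knockout and 0.74 in wild-type mice, and between acinar-low arrays 1.58 and 0.28.

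Cldn18, a claudin known from lung and stomach, was low in 9 arrays and higher in the 3 of treated knockout mice. Its signal was 4.20, 5.03 and 5.25 in treated knockout mice and 2.92, 2.84 and 3.15 in untreated knockout mice. It was 3.18, 2.93 and 3.27 in treated wild-type mice and 3.49, 3.28 and 3.05 in untreated wild-type mice. The untreated knockout signals lay under the 25th percentile of mean signal over all genes (3.22), so the rise is given as a lower bound. Against that level Cldn18 was at least 3.04-fold higher in treated knockout mice. The measured difference was 1.85 ± 0.24 (adjusted p = 8.28e-05) and the measured interaction 1.998 ± 0.33 (adjusted p = 0.00103). The lung and stomach forms of Cldn18 begin at different first exons, and the single probe set does not tell them apart. Of 8 genes of gastric-type epithelium, 4 also rose in knockout mice and 1, Gkn3, fell, where 18.8% of all genes rose and 16% fell. Anxa10 rose by 5.56 ± 0.59, Tff1 by 3.37 ± 0.36, Gkn2 by 2.83 ± 0.24 and Gkn1 by 2.49 ± 0.19. The lowest of the 8 differences was -2.03. The summed log2 level of those 8 genes was 9.40 to 12.07 in treated knockout mice and 6.90 to 11.89 in untreated knockout mice, against 7.70 to 10.35 in treated wild-type mice and 7.09 to 11.38 in untreated wild-type mice. The gastric surface mucin Muc5ac was at 2.57 to 3.21 over all 12 arrays, and the trefoil gene Tff2 was high in the acinar-high arrays alone. Their part in the Cldn18 result was not tested.

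Cldn4, a claudin that tightens many epithelia, had its low values in treated wild-type mice. Its signal was 9.25, 10.13 and 10.35 in treated knockout mice and 9.88, 9.52 and 9.65 in untreated knockout mice. It was 7.05, 7.76 and 8.34 in treated wild-type mice and 9.23, 9.27 and 9.43 in untreated wild-type mice. The 3 treated wild-type arrays lay below all 9 others. Cldn4 differed by 0.22 ± 0.32 with MTX in knockout mice (adjusted p = 0.644) and by -1.59 ± 0.32 in wild-type mice, which did not pass over all genes (adjusted p = 0.107). That call turned with the fit: the adjusted p was 0.0396 without treated knockout replicate 1 and 0.00370 with array weights. The interaction was 1.82 ± 0.45 (adjusted p = 0.0118), and after MTX Cldn4 was 4.58-fold higher in knockout than in wild-type mice (2.19 ± 0.32, adjusted p = 0.000197). Between acinar-high arrays alone the wild-type difference was -1.59, and between acinar-low arrays -1.53.

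Cldn3, a sealing claudin whose gene is the direct neighbour of Cldn4 with no protein-coding gene between them, did not follow it. Its signal was 8.53, 8.79 and 8.95 in treated knockout mice and 9.58, 9.09 and 9.16 in untreated knockout mice. Cldn3 fell by 0.52 in knockout mice (-0.52 ± 0.17, adjusted p = 0.0364) and differed by 0.13 ± 0.17 in wild-type mice (adjusted p = 0.779). After MTX it was lower in knockout than in wild-type mice (-0.68 ± 0.17, adjusted p = 0.00877), the comparison in which Cldn4 was higher. With replicate numbers as a block within the knockout arrays, the Cldn3 fall was no longer called (adjusted p = 0.117).

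Of the remaining claudins 2 fell in knockout mice. Cldn23, known from differentiated colonocytes, was at 4.36, 5.26 and 5.26 in treated knockout mice and 6.92, 6.27 and 6.59 in untreated knockout mice. All 3 treated values were below all 3 untreated ones, a fall of 3.10-fold (-1.63 ± 0.24, adjusted p = 0.00022). Cldn7, which binds EPCAM on the lateral membrane, was at 9.78, 8.95 and 8.98 in treated knockout mice against 10.44, 9.73 and 9.83 in untreated knockout mice. Replicate 1 of the treated group overlapped the untreated ones, and the fall was -0.76 ± 0.23 (adjusted p = 0.0252). Cldn1, a barrier claudin of skin, differed by 0.42 ± 0.18 (adjusted p = 0.106), and was called higher in 3 of 22 other settings, among them the fit without untreated knockout replicate 3 (0.58, adjusted p = 0.0373). Cldn12, an atypical claudin without the usual PDZ-binding end, differed by -0.10 ± 0.14 with an interval of -0.42 to 0.21.

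Cldn8, a barrier claudin of colon and distal nephron, followed the pancreatic signal. It was 3.19, 5.93 and 5.91 in treated knockout mice, 4.90, 7.14 and 7.64 in untreated knockout mice, 3.69, 4.79 and 3.20 in treated wild-type mice, and 3.44, 5.87 and 6.38 in untreated wild-type mice. The lowest array of each knockout group and of the untreated wild-type group was its acinar-low one, and the highest treated wild-type array was its acinar-high one. Acinar-high arrays exceeded acinar-low ones by 2.32 ± 0.22 within groups (adjusted p = 0.000198), and Cldn8 was the only member called of 34 in that comparison, which called 2.65% of all genes. Its SD was the largest of the members in every group (1.58, 1.46, 0.81 and 1.57). Its MTX difference in knockout mice was -1.55 ± 0.97 (adjusted p = 0.257), but -1.43 with the acinar signal as a covariate (adjusted p = 0.000662) and -1.55 with replicate numbers as a block within the knockout arrays (adjusted p = 0.00211). In wild-type mice the Cldn8 difference was also negative, from -2.23 to -0.55 over 21 other settings. The interaction of Cldn8 ranged from -1.04 to 0.78 over 20 other settings and was called in none of them.

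**Figure D2:**
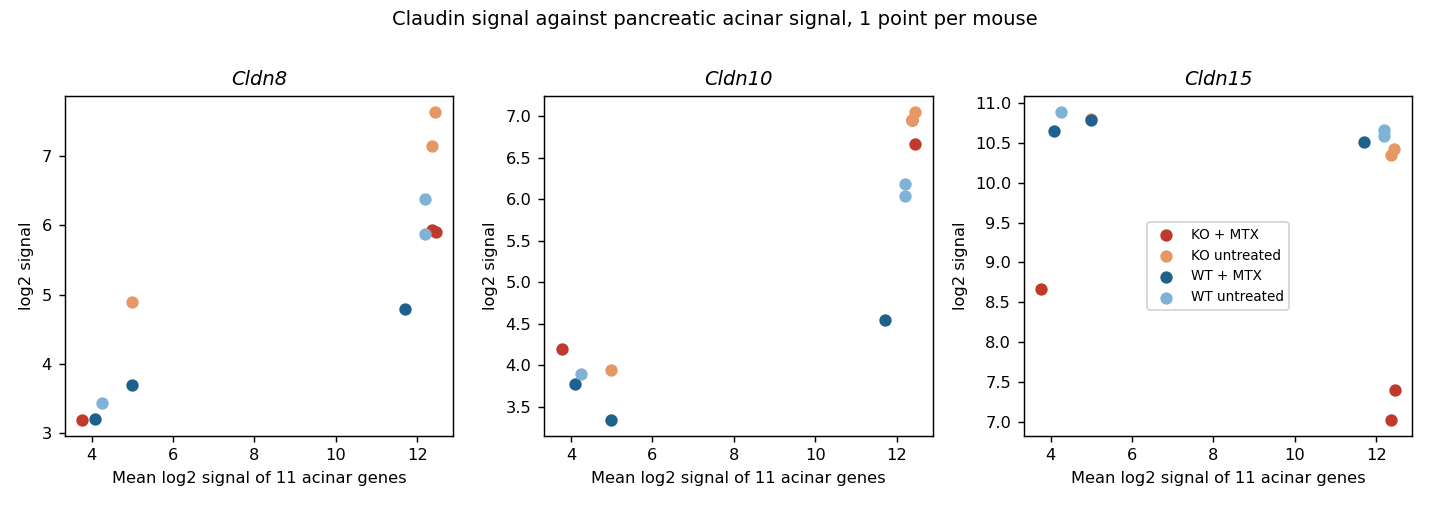
Log2 signal of 3 claudins (vertical axes) against the mean log2 signal of 11 pancreatic acinar genes (horizontal axes), 1 point per mouse, coloured by group. Cldn8 and Cldn10 are higher in acinar-high arrays (by 2.32 and 2.22 within groups), whereas Cldn15 is low in all 3 treated mice labelled knockout at both ends of the acinar axis.

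Every one of the 24 members called in knockout mice had the same sign between acinar-high arrays alone and between acinar-low arrays alone. For Cldn15 these differences were -3.18 and -2.13, for Cldn18 2.14 and 1.28, and for Ocln -1.14 and -1.71. The 24 members were selected by their difference over these same arrays, so the shared signs are not separate evidence. These within-class values rest on 1 or 2 arrays a group and carry no test.

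Among the other membrane proteins of the tight junction, occludin and its MARVEL relatives fell and 2 JAM proteins rose. Ocln encodes occludin and was at 7.64, 7.77 and 7.64 in treated knockout mice, against 9.34, 8.81 and 8.87 in untreated knockout mice. It was 8.64, 8.80 and 8.82 in treated wild-type mice and 8.80, 8.89 and 8.90 in untreated wild-type mice. The treated knockout arrays lay below all 9 others, and replicate 1 did not stand apart for this gene. Ocln fell 2.51-fold (-1.33 ± 0.13, adjusted p = 1.42e-05), with an interaction of -1.22 ± 0.19 (adjusted p = 0.000633).

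Marveld2 encodes tricellulin, the protein of contacts where 3 cells meet. It was at 6.25, 6.18 and 5.95 in treated knockout mice and 6.93, 6.85 and 6.71 in untreated knockout mice, a fall without overlap of 0.70 (-0.70 ± 0.13, adjusted p = 0.00153). Marveld3, the remaining member of that family, was at 6.58, 6.19 and 6.25 against 7.70, 7.16 and 7.10 in the same groups (-0.97 ± 0.17, adjusted p = 0.000818). Both had called interactions, of -0.91 ± 0.19 and -1.20 ± 0.24 (adjusted p = 0.00418 and 0.00318).

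Jam2 encodes JAM-B, an adhesion protein known from endothelium, and it was the member with the smallest interaction p. Its signal was 7.53, 7.79 and 7.38 in treated knockout mice and 6.83, 6.56 and 6.79 in untreated knockout mice. It was 6.14, 6.06 and 6.25 in treated wild-type mice and 6.54, 6.75 and 6.65 in untreated wild-type mice. Treated knockout arrays lay above all others and treated wild-type arrays below all others. Jam2 rose by 0.84 ± 0.12 in knockout mice (adjusted p = 0.000275), differed by -0.50 ± 0.12 in wild-type mice (adjusted p = 0.179), and had an interaction of 1.34 ± 0.18 (adjusted p = 0.00021).

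Jam3 encodes JAM-C, which binds JAM-B, and was at 4.76, 5.36 and 4.70 in treated knockout mice against 4.20, 4.35 and 3.99 in untreated knockout mice. It rose by 0.76 ± 0.19 (adjusted p = 0.00873). Its interaction of 0.82 ± 0.27 was close to the threshold (adjusted p = 0.0472) and was lost in some fits, among them the one with the acinar covariate (adjusted p = 0.0543). F11r, which encodes the epithelial JAM-A, differed by -0.26 ± 0.13 in knockout mice (adjusted p = 0.171). Endothelial genes moved with the rise of Jam2 and Jam3: 6 of 8 rose in knockout mice, where 18.8% of all genes rose. The summed log2 level of these endothelial genes was 10.45 to 10.72 in treated knockout mice and 9.36 to 9.54 in untreated knockout mice, against 9.06 to 9.21 in treated wild-type mice and 9.51 to 9.59 in untreated wild-type mice. Their part in the Jam2 and Jam3 results was not tested.

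Scaffold proteins divided, and ZO-1 was among those not called. Tjp1, which encodes it, was at 8.88, 8.86 and 8.68 in treated knockout mice and 9.06, 8.60 and 8.59 in untreated knockout mice. The groups overlapped, and the difference was 0.06 ± 0.14 with a 95% interval of -0.24 to 0.36 (adjusted p = 0.785). Its relative Tjp3 (ZO-3), a scaffold of epithelia, was at 8.49, 7.40 and 7.51 against 9.17, 8.84 and 8.96 in the same groups. Tjp3 fell 2.28-fold (-1.19 ± 0.24, adjusted p = 0.00253), with replicate 1 nearest to the untreated arrays.

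Cgn encodes cingulin, which ties ZO proteins to actomyosin and microtubules, and was at 6.90, 6.62 and 6.86 in treated knockout mice and 8.22, 7.79 and 7.75 in untreated knockout mice. The groups were apart by more than their own spread, a 2.18-fold fall (-1.12 ± 0.15, adjusted p = 0.000149). Cgnl1 encodes paracingulin, a relative found at tight and adherens junctions. It was at 5.82, 6.08 and 6.26 in treated knockout mice, 4.78, 5.64 and 6.09 in untreated knockout mice, 4.83, 4.79 and 4.86 in treated wild-type mice, and 4.75, 5.16 and 5.07 in untreated wild-type mice. Untreated knockout mice spread over more than 1 log2 unit, and the knockout difference of 0.55 ± 0.27 was not called (adjusted p = 0.141). It was 0.85 without untreated knockout replicate 3 and then called (adjusted p = 0.0191), 0.19 without untreated knockout replicate 1, and 0.57 and called with the acinar covariate (adjusted p = 0.0498). After MTX, Cgnl1 was higher in knockout than in wild-type mice (1.23 ± 0.27, adjusted p = 0.00327), opposite to Cgn (-1.20 ± 0.15, adjusted p = 7.64e-05).

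Of the polarity proteins, which set the apical border of the junction, Crb3 fell most. Crb3 is the epithelial Crumbs protein of the apical membrane, and was at 6.64, 6.65 and 6.91 in treated knockout mice and 7.71, 7.75 and 7.69 in untreated knockout mice. No array of one group reached the other, and the fall was 1.98-fold (-0.98 ± 0.16, adjusted p = 0.000607). Pard3, a scaffold of the PAR complex, fell by 0.33 (-0.33 ± 0.12, adjusted p = 0.0469), a call lost with replicate numbers as a block (adjusted p = 0.055). Pard6b, its partner, differed by -0.42 ± 0.17 in knockout mice (adjusted p = 0.0819) and by -0.38 ± 0.17 in wild-type mice (adjusted p = 0.42).

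**Figure D3:**
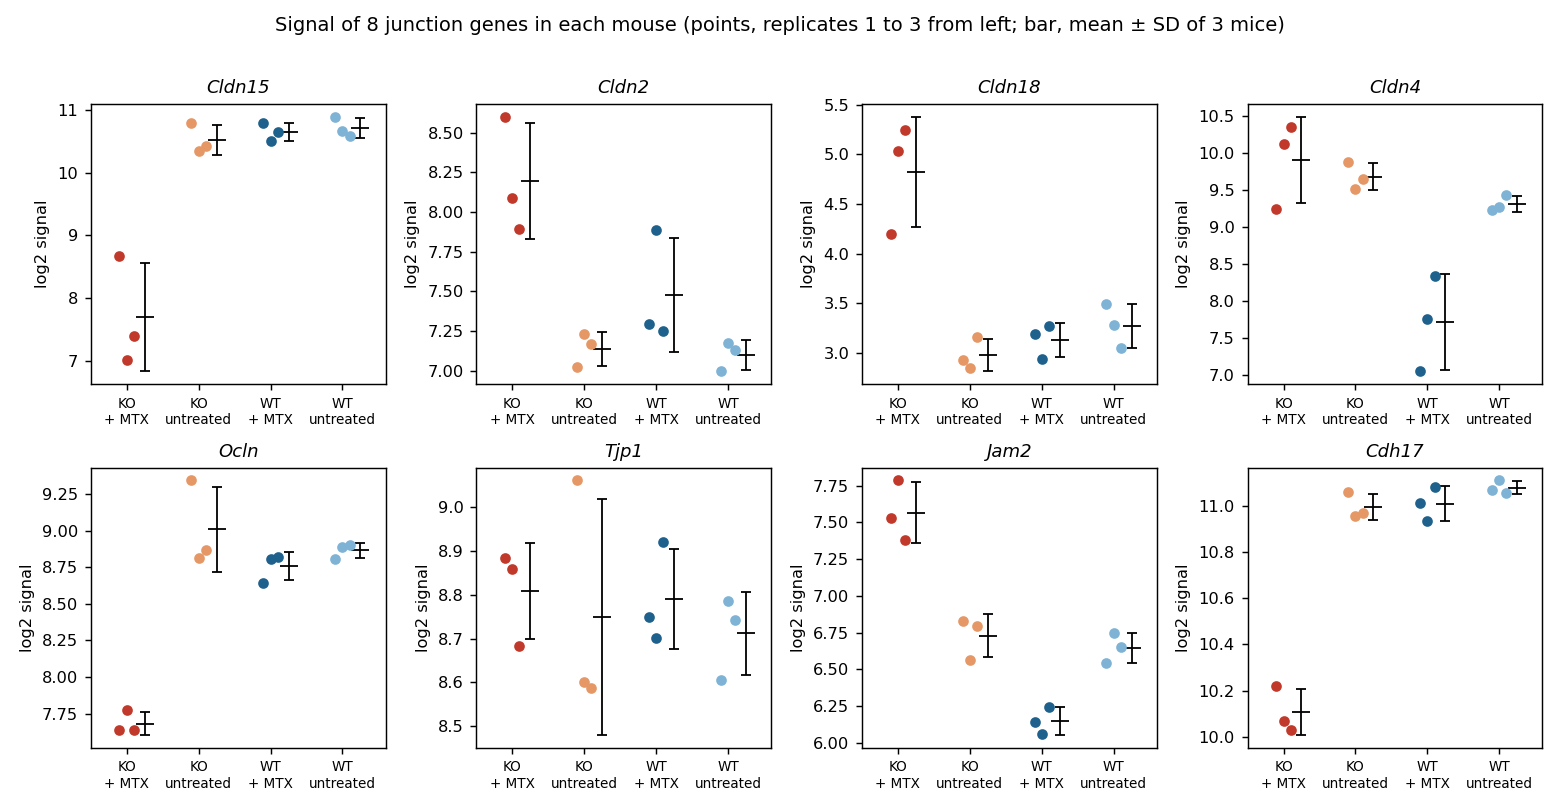
Log2 signal (vertical axes) of 8 junction genes in each mouse, 3 points per group, with a bar for the mean ± SD of the group. Treated mice labelled knockout stand below the other groups for Cldn15, Ocln (7.64 to 7.77) and Cdh17 (10.03 to 10.22) and above them for Cldn2, Cldn18 and Jam2; Tjp1 overlaps in all groups, and Cldn4 is lowest in treated wild-type mice.

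All 5 genes of adherens junctions and lateral cadherins fell in knockout mice, most of all Epcam and Cdh17. Cdh17 encodes LI-cadherin, an intestinal cadherin that does not bind catenins. It was at 10.22, 10.07 and 10.03 in treated knockout mice and 11.06, 10.95 and 10.97 in untreated knockout mice, against 11.01, 10.93 and 11.08 in treated wild-type mice and 11.07, 11.11 and 11.06 in untreated wild-type mice. Its 4 group SDs were 0.03 to 0.10, and the fall of 1.85-fold had the smallest adjusted p of the members (-0.89 ± 0.09, adjusted p = 1.30e-05). Epcam, an adhesion protein that stabilises claudins in intestine, was at 10.31, 9.94 and 9.55 in treated knockout mice and 11.27, 10.63 and 10.77 in untreated knockout mice. Its fall was 1.94-fold (-0.95 ± 0.20, adjusted p = 0.0029).

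The falls of E-cadherin and the catenins were shallower. Cdh1, which encodes E-cadherin, was at 10.39, 10.28 and 10.32 in treated knockout mice against 10.89, 10.46 and 10.61 in untreated knockout mice. The groups did not overlap, and the fall was 1.25-fold (-0.33 ± 0.11, adjusted p = 0.043). Ctnna1, the link of cadherins to actin, fell by 0.34 (-0.34 ± 0.11, adjusted p = 0.0379), and Ctnnd1 (p120), which holds cadherins at the membrane, by 0.39 (-0.39 ± 0.11, adjusted p = 0.0199). None of these 3 calls held with replicate numbers as a block within the knockout arrays, where the adjusted p was 0.112 for Cdh1, 0.117 for Ctnna1 and 0.0534 for Ctnnd1. Of 12 fits that each left out 1 array, the fall in knockout mice lost its call in 10 for Cdh1, 9 for Pard3, 8 for Ctnna1, 5 for Cldn3, and 3 each for Cldn7, Ctnnd1 and Dsg2.

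Desmosome genes fell at the level of cadherins, plakophilin 3 and desmoplakin. Dsc2, the desmocollin of simple epithelia, was at 8.12, 7.47 and 7.38 in treated knockout mice and 9.25, 8.63 and 8.62 in untreated knockout mice, a 2.26-fold fall (-1.17 ± 0.21, adjusted p = 0.00102). Its partner Dsg2, a desmoglein of simple epithelia, was at 8.52, 8.02 and 8.19 against 9.05, 8.51 and 8.63 in the same groups. The Dsg2 arrays overlapped slightly, and the fall was -0.49 ± 0.16 (adjusted p = 0.03).

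Pkp3, a plakophilin of the desmosomal plaque, was at 5.84, 5.76 and 6.07 in treated knockout mice and 6.79, 6.57 and 6.83 in untreated knockout mice. It fell by 0.84 (-0.84 ± 0.14, adjusted p = 0.000502). Dsp encodes desmoplakin, which grips keratin filaments, and was at 8.93, 8.98 and 9.16 against 10.35, 9.47 and 9.56 in the same groups. Untreated replicate 1 was the highest of the 12 Dsp arrays. The fall was -0.77 ± 0.20 (adjusted p = 0.0117), was -0.65 in the dimmer Dsp probe set, and was not called with replicate numbers as a block within the knockout arrays (adjusted p = 0.0628). Jup, which encodes plakoglobin and serves both desmosomes and adherens junctions, differed by -0.21 ± 0.14 (interval -0.52 to 0.10), and Pkp2, another plakophilin, by -0.30 ± 0.15 (adjusted p = 0.149).

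Cell type markers measured in the same arrays are set beside these falls, where 18.8% of all genes rose and 16% fell in knockout mice. Of 12 general epithelial genes 6 fell and 1 rose in knockout mice: Vil1 fell by 2.19 and Ovol1 by 2.49, Krt18 rose by 1.28 ± 0.23, and Krt8 (-0.13 ± 0.11), Krt19 (0.26 ± 0.12), Esrp1 (0.16 ± 0.17) and Grhl2 (0.00 ± 0.21) were not called. The summed log2 level of these 12 was 13.62 to 13.71 in treated knockout mice and 13.70 to 13.98 in untreated knockout mice. In wild-type mice it was 13.80 to 13.93 after MTX and 13.59 to 13.83 untreated. A sum follows the brightest genes of a list. The mean log2 signal of the 12 was 8.42 to 8.88 in treated and 9.03 to 9.30 in untreated knockout mice. That mean was 9.24 to 9.31 in treated and 8.87 to 9.14 in untreated wild-type mice. All 12 mature enterocyte genes fell, with summed levels of 10.56 to 13.25 in treated knockout mice and 15.02 to 15.21 in untreated knockout mice, against 15.01 to 15.30 in treated wild-type mice and 15.18 to 15.26 in untreated wild-type mice. Of 8 fibroblast genes 7 rose and 1 fell, with summed levels of 12.62 to 12.70 in treated knockout mice and 11.23 to 11.66 in untreated knockout mice, against 11.15 to 11.37 in treated wild-type mice and 11.29 to 11.46 in untreated wild-type mice. Of 5 mesothelial genes 3 rose: Msln by 4.84 ± 0.19, Upk1b by 1.71 ± 0.22 and Wt1 by 0.71 ± 0.08. Their summed levels were 9.09 to 9.73 in treated knockout mice and 6.80 to 7.12 in untreated knockout mice, against 6.50 to 6.84 in treated wild-type mice and 6.69 to 7.24 in untreated wild-type mice. Of 6 smooth muscle genes 2 rose (Des and Tagln), with summed levels of 12.84 to 12.94 in treated knockout mice and 12.04 to 12.96 in untreated knockout mice, against 11.97 to 12.39 in treated wild-type mice and 12.15 to 12.49 in untreated wild-type mice. Of 6 adipocyte genes 1 fell (Cidec, by 2.02), with summed levels of 7.20 to 8.37 in treated knockout mice and 9.23 to 9.63 in untreated knockout mice, against 8.58 to 9.14 in treated wild-type mice and 9.45 to 11.52 in untreated wild-type mice. That count of adipocyte genes is near the share of all genes that fell. None of the 11 acinar genes was called by limma in knockout mice, or at an unadjusted p under 0.05 (0 of 11). The part of these shifts in the junction results was not tested.

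In wild-type mice no junction gene passed the test after MTX. Between treated and untreated mice labelled wild type, limma called 0 of the 34 members, and 0.0744% of all genes. At an unadjusted p under 0.05 there were 4 members, where 11.7% of all genes passed. The smallest adjusted p was 0.107, for Cldn4, and the median difference was 0.02. Treated arrays lay above all untreated ones for 3 members and below for 3, where 13.5% of all genes lay above and 9.18% below.

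Those 6 members were Cldn1 (0.39 ± 0.18), Cldn2 (0.38 ± 0.20) and Pkp2 (0.42 ± 0.15) above, and Cldn4 (-1.59 ± 0.32), Jam2 (-0.50 ± 0.12) and Pard6b (-0.38 ± 0.17) below. Without treated knockout replicate 1, 1 member (Cldn4) was called lower. With array weights 6 members were called, 2 higher (Cldn1 and Pkp2) and 4 lower (Cldn4, Cldn8, Jam2 and Pard6b). Jam2 values were 6.14 to 6.25 in treated and 6.54 to 6.75 in untreated wild-type mice, and the endothelial genes beside it were lower in 8 of 8 cases, with 0 called by limma and 6 at an unadjusted p under 0.05. The 20 members that fell in knockout mice had wild-type differences between -0.11 (Ocln) and 0.23 (Marveld3).

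**Figure D4:**
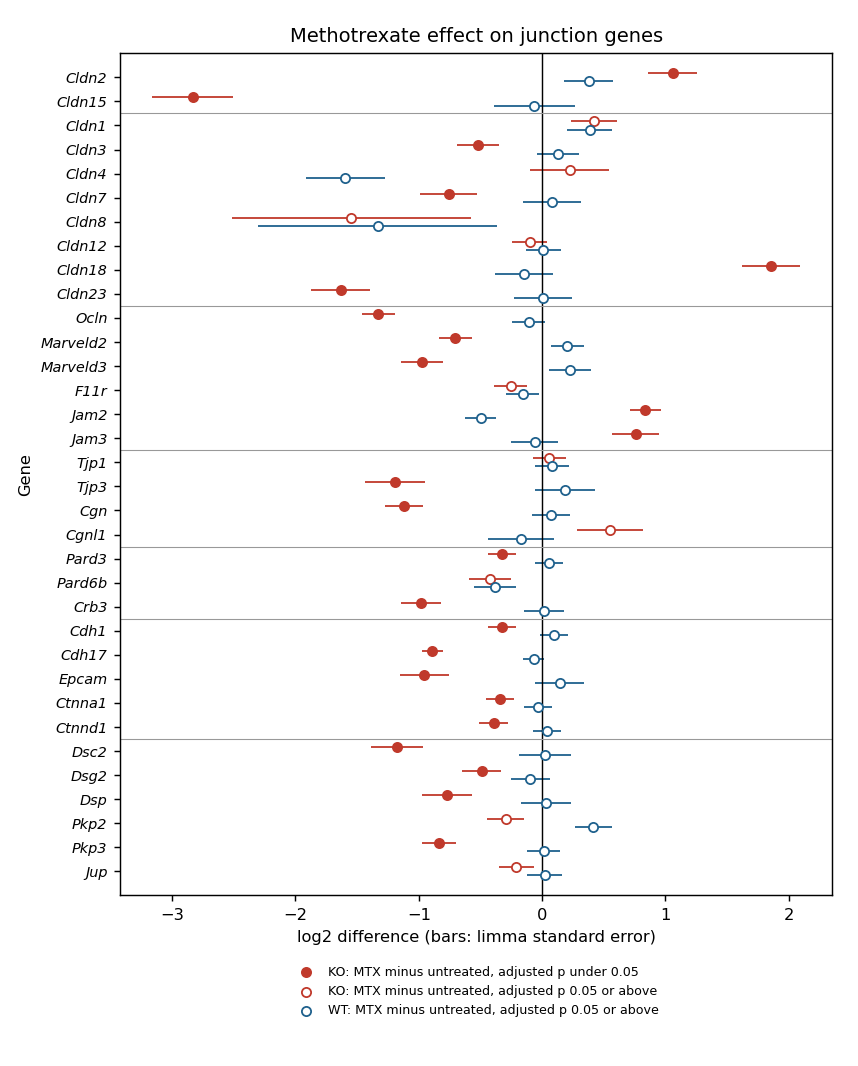
MTX minus untreated, as log2 differences with limma standard errors (horizontal axis), for each of the 34 junction genes (down the page, by junction type), in mice labelled knockout (red) and wild type (blue), with filled points for an adjusted p under 0.05. Filled red points lie left of 0 for 20 genes, from Cldn15 (-2.83) to Cdh1 (-0.33), and right of 0 for 4, while no blue point is filled and the widest blue departure is Cldn4 (-1.59).

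The test of the interaction called 17 of the 34 members, 13 lower and 4 higher, against 23.8% of all genes (12% lower and 11.8% higher). A lower value means a more negative MTX difference in knockout than in wild-type mice. The median was -0.43 over the members, 0.01 over all genes and -0.58 over the 12 general epithelial genes. The 4 higher were Cldn18, Cldn4, Jam2 and Jam3. The 13 lower were Cldn15 and Cldn23, Ocln, Marveld2 and Marveld3, Tjp3 and Cgn, Crb3, Cdh17 and Epcam, and Dsc2, Pkp2 and Pkp3.

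Among these the lower interaction terms other than Cldn15 spanned -1.64 ± 0.33 (Cldn23, adjusted p = 0.00369) to -0.71 ± 0.21 (Pkp2, adjusted p = 0.0268). Pkp2 was at 7.60, 7.13 and 7.25 in treated knockout mice and 7.78, 7.67 and 7.42 in untreated knockout mice, against 7.99, 8.05 and 8.04 in treated wild-type mice and 7.45, 7.55 and 7.83 in untreated wild-type mice. Neither of its MTX differences was called alone, and its high arrays were those of treated wild-type mice. The interaction call of Pkp2 was lost in 8 of the 12 fits that left out 1 array (adjusted p = 0.0538 to 0.0676), and that of Jam3 also in 8 (adjusted p = 0.0502 to 0.115). The knockout difference of Pkp2 was called lower without treated knockout replicate 1 (-0.43, adjusted p = 0.0327). Members whose fall in knockout mice was called without a called interaction were Cldn3 (-0.65 ± 0.24), Cldn7 (-0.84 ± 0.33), Pard3 (-0.38 ± 0.16), Cdh1 (-0.42 ± 0.16), Ctnna1 (-0.30 ± 0.16), Ctnnd1 (-0.43 ± 0.16), Dsg2 (-0.40 ± 0.22) and Dsp (-0.80 ± 0.29). For these 8 the call depended on the fit: all 8 interaction terms were called with array weights, at adjusted p = 0.00211 (Cldn7) to 0.0482 (Dsg2). That of Cldn7 was also called with the replicate block (-0.84, adjusted p = 0.0368), with the acinar covariate (-0.72, adjusted p = 0.0496) and without treated knockout replicate 1 (-1.11, adjusted p = 0.0075). Without 1 array, terms were also called for Cldn3 (treated wild-type replicate 2, adjusted p = 0.0461), Ctnnd1 (treated knockout replicate 1, adjusted p = 0.0423, or untreated knockout replicate 2, 0.0467), Cdh1 (untreated knockout replicate 2, 0.0364) and Dsp (untreated knockout replicate 2, 0.0352).

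After MTX, 19 members were lower and 6 higher in mice labelled knockout than in mice labelled wild type, against 36.9% of all genes called (16.8% lower and 20.2% higher). The median was -0.40 for the members, 0.00 over all genes and -0.53 over the 12 general epithelial genes. This comparison shares the treated knockout arrays with the MTX difference in knockout mice, so the 2 counts are not separate evidence. The 6 higher were Cldn4 (2.19 ± 0.32), Cldn18 (1.70 ± 0.24), Jam2 (1.42 ± 0.12), Cgnl1 (1.23 ± 0.27), Jam3 (1.01 ± 0.19) and Cldn2 (0.72 ± 0.20). The deepest of the 19 lower were Cldn15 (-2.95 ± 0.33), Tjp3 (-1.41 ± 0.24), Marveld3 (-1.23 ± 0.17), Dsc2 (-1.20 ± 0.21) and Cgn (-1.20 ± 0.15). Cldn2 lost its call here when only the 2 groups were fitted (adjusted p = 0.0639), without treated wild-type replicate 1 (0.63, adjusted p = 0.0567) and without treated wild-type replicate 3 (0.61, adjusted p = 0.0614). Of the 12 fits that left out 1 array, the call was lost in 10 for Cdh1, 9 for Ctnna1, and 4 each for Cldn7 and Pard3. Cldn1, Dsg2 and Dsp, not called between treated genotypes in the fit of all 12 arrays, were called in 7, 2 and 3 of 21 other settings, Cldn1 higher and Dsg2 and Dsp lower.

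Some members were not called after MTX, though most of the intervals below include the Cdh1 difference (-0.31), which was called. The 95% intervals of knockout minus wild type were -0.33 to 0.30 for Cldn12, -0.28 to 0.32 for Tjp1, -0.36 to 0.23 for F11r, -0.36 to 0.26 for Jup and -0.39 to 0.37 for Pard6b. None of these 5 genes was called in any of the 5 comparisons, but Pard6b was called lower with MTX in knockout mice in 5 of 22 other settings. These were array weights (-0.35, adjusted p = 0.0174), median centring (-0.47, adjusted p = 0.0479), the acinar signal as a covariate (-0.41, adjusted p = 0.0463) or as a block (-0.42, adjusted p = 0.0476), and leaving out treated knockout replicate 3 (-0.61, adjusted p = 0.0114). Cldn8 had an interval of -1.01 to 3.25, too wide to place.

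No junction gene was called between untreated mice of the genotypes. Limma called 0 of the 34 members between untreated knockout and untreated wild-type mice, where 0.0106% of all genes were called. At an unadjusted p under 0.05 there was 1 member (Cldn1, 0.46 ± 0.18), where 6.19% of all genes passed. With replicate numbers as a block among these 6 arrays, Cldn8 was called higher (1.33, adjusted p = 0.0145). With array weights Cldn1 was called higher (0.59, adjusted p = 0.0282). Cldn15 differed by -0.19 ± 0.33, Ocln by 0.14 ± 0.13 and Cdh17 by -0.08 ± 0.09.

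Further junction genes, given for comparison, had a median near that of all genes. The list of such genes analysed here held 61. In knockout mice 17 of the 61 rose and 13 fell with MTX, where 18.8% of all genes rose and 16% fell, and their median was -0.04. In wild-type mice 0 of 61 were called by limma, and 14 of 61 had an unadjusted p under 0.05, where 11.7% of all genes did. The smallest wild-type adjusted p was that of Ppl (0.0551).

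The 6 with the smallest p in knockout mice all rose. Dsg3, a desmoglein of stratified epithelia and the direct gene neighbour of Dsg2, was at 5.95, 5.93 and 5.74 in treated knockout mice and 2.30, 2.51 and 2.54 in untreated knockout mice. In wild-type mice it was 2.34, 2.31 and 2.48 after MTX and 2.68, 2.53 and 2.43 untreated. All 9 other arrays lay under the 25th percentile of 3.22, and against that level Dsg3 was at least 6.26-fold higher in treated knockout mice. The measured difference was 3.42 ± 0.11 (adjusted p = 5.52e-09) and the measured interaction 3.59 ± 0.16, while Dsg2 fell.

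Ppl encodes periplakin, a plaque protein of stratified epithelia, and was at 6.67, 6.77 and 6.80 in treated knockout mice and 5.39, 5.33 and 5.33 in untreated knockout mice. It was 5.61, 5.80 and 5.61 in treated wild-type mice and 5.05, 4.98 and 5.18 in untreated wild-type mice, so treated arrays lay above untreated ones in both genotypes. The rise in knockout mice was 1.40 ± 0.09 (adjusted p = 7.10e-07), the wild-type difference 0.60 ± 0.09, and the interaction 0.79 ± 0.13 (adjusted p = 0.00106). Evpl, which encodes the related envoplakin, fell by 0.73 in knockout mice (adjusted p = 0.000762).

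The others were Cdh11, a mesenchymal cadherin (2.21 ± 0.15), Cdh5, the endothelial VE-cadherin (1.61 ± 0.11), Esam, an endothelial adhesion protein (1.58 ± 0.12), and Mpdz, a scaffold with many PDZ domains (1.31 ± 0.11). Cdh5 was at 8.26, 8.02 and 8.08 in treated knockout mice and 6.56, 6.56 and 6.40 in untreated knockout mice, against 6.34, 6.21 and 6.36 in treated wild-type mice and 6.98, 6.69 and 6.68 in untreated wild-type mice. Like Jam2, it was highest in treated knockout and lowest in treated wild-type mice. Cdh5 is itself on the endothelial marker list given beside Jam2. Among the 13 that fell were partners of the polarity and scaffold members: Prkcz, a kinase of the PAR complex (-1.67 ± 0.17), Mpp5 (-1.31 ± 0.12) and Patj (-1.25 ± 0.15), which bind Crumbs, and Igsf5 (-1.21 ± 0.12), a JAM relative; these were chosen after their values were seen.

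Outside the 34, the claudins Cldn10 and Cldn9 also moved with the pancreatic signal, and no other claudin there was called. Cldn10 was higher in acinar-high arrays by 2.22 ± 0.25 (adjusted p = 0.00105) and Cldn9 by 1.16 ± 0.19 (adjusted p = 0.0087), and for both genes every acinar-high array lay above every acinar-low one. Of the 61 further junction genes 4 were called between acinar-high and acinar-low arrays, 3 higher and 1 lower, where 2.65% of all genes were called. The remaining ones were Ildr1 (0.54 ± 0.11) and Mylk (-0.40 ± 0.09).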

How the data were processed

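Log2 signals of 35556 probe sets were deposited by the authors, made with RMA per the submitters' processing notes; the sources used here name neither the array design nor its genome build. RMA corrects background, normalises arrays to one distribution and summarises probes, which can shrink shifts shared by most genes. Symbols came from the platform annotation: 21218 probe sets had 1 symbol, 1881 several and 12457 none. The brightest single-symbol probe set stood for each of 18820 genes. All 34 member symbols matched RefSeq (GRCm38.p6), used for neighbours and promoters.

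Tests used limma 3.58.1 in R 4.3.3 on all 12 arrays with a mean per group (8 residual degrees of freedom). Benjamini-Hochberg adjustment ran over all genes. The fit was also run on simulated independent noise with known changes, which held no acinar signal and no replicate pattern. Arrays give no read depth, and 3 mice a group limit the precision. Array medians were 4.37 to 4.56. All 34 members are named. From the further junction genes and marker lists, up to 6 with the smallest p in knockout mice were eligible, and genes named beyond them were chosen after their values were seen. Members, lists and tests were chosen with earlier results of these data known.

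Replicate numbers were shared across groups. Deviations of same-numbered arrays from their group means correlated at 0.50, 0.29 and 0.43 between the knockout groups. Between the untreated groups they correlated at 0.67, 0.50 and 0.50. These arrays thus pass a rule for pairing that asks for every correlation over 0.1. For replicates 2 and 3 a different number reached nearly as much, 0.27 and 0.40 between knockout groups and 0.45 and 0.48 between untreated groups. Replicate 1 is also the acinar-low array of each of those groups, so pairing by number and acinar signal cannot be told apart. Alternatives were a log2 minimum of 1, leaving out genes under the 25th percentile of mean signal, quantile normalisation, median centring, fitting only the groups compared, the mean of probe sets, a replicate block, the acinar covariate, array weights and leaving out each array. The acinar signal as a 2-level block, and the replicate block within 2 groups, were added after seeing the data.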

Additional observations from a re-analysis of the deposited data

Results flagged for a closer look

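The MTX difference of 17 junction genes differed between genotypes by the interaction term of limma, each with an adjusted p under 0.05. Values are the log2 difference in mice labelled knockout minus that in mice labelled wild type. Higher terms were found for Cldn18 (1.998), Cldn4 (1.82), Jam2 (1.34) and Jam3 (0.82). Tight junction genes with lower terms were Cldn15 (-2.77), Cldn23 (-1.64), Tjp3 (-1.37), Ocln (-1.22), Cgn (-1.20), Marveld3 (-1.20) and Marveld2 (-0.91). Lower terms were also found for the polarity gene Crb3 (-0.997), the lateral adhesion genes Epcam (-1.10) and Cdh17 (-0.82), and the desmosome genes Dsc2 (-1.20), Pkp3 (-0.85) and Pkp2 (-0.71). All 17 had the same sign between acinar-high arrays alone and between acinar-low arrays alone. They were selected over these same arrays, so this is not separate evidence. Groups of 3 mice are too small for a test of single outlying arrays.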

How the results depend on the processing

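No member called in the fit of all 12 arrays changed sign under any alternative. Apart from the log2 minimum of 1, calls held in every setting for 16 of 24 members in the MTX difference in knockout mice, 20 of 25 between genotypes after MTX, and 15 of 17 in the interaction. With a log2 minimum of 1, 2 members were higher and 6 lower in knockout mice, 8 lower between treated genotypes and 8 lower in the interaction. Fitting only the knockout groups left 12 lower. Array weights gave 2 higher and 4 lower in wild-type mice, 1 higher between untreated genotypes and 21 lower in the interaction. Leaving out each array in turn gave 4 to 6 higher and 13 to 19 lower in knockout mice, 0 to 0 higher and 0 to 1 lower in wild-type mice, 5 to 7 higher and 15 to 19 lower between treated genotypes, 0 to 0 in either direction between untreated genotypes, and 3 to 4 higher and 12 to 15 lower in the interaction. The lowest count in knockout mice, 13, came without treated replicate 2 or untreated replicate 1. Some of these settings impose fewer arrays or a stricter minimum, and the cause of the changes was not tested.

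With the replicate block over all arrays, 4 members were higher and 18 lower in knockout mice, 7 and 17 between treated genotypes, 4 and 14 in the interaction, and 0 in wild-type mice and between untreated genotypes. The replicate block within the 2 groups gave 4 higher and 15 lower in knockout mice, and 1 higher (Cldn8) between untreated genotypes. Across all pairs of groups, 15 of 18 same-number correlations were over 0.1 (-0.486 to 0.671), and in 11 of 18 the array correlated best with its own number. The values below 0 were those of treated wild-type replicate 3 (-0.15, -0.38 and -0.49). That array is acinar-low, while replicate 3 of every other group is acinar-high. Pairing by number and acinar signal therefore cannot be told apart there either. Other scalings moved the median of all genes by under 0.1, but some calls changed with them. Quantile normalisation left 16 members lower in knockout mice. Cdh1 (adjusted p = 0.132), Ctnna1 (0.085), Cldn3 (0.0782) and Pard3 (0.0537) lost their call in that fit. Between treated genotypes it left 17 lower. Median centring gave 21 lower in knockout mice. Small differences are limited by 3 mice a group, and signals near the 25th percentile of genes (3.22), such as Cldn18 outside treated knockout mice, carry little above background.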
